A study of Rattus norvegicus with 17 samples.

Results

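The Serpin family of the rat meibomian gland was described across 4 groups of rats. Its members were the listed genes whose symbol starts with Serpin, a clade letter from a to i and a number, whatever its values. The members reported were 33 genes among the 17251 listed, 10 of clade A, 14 of clade B, 2 each of clades E and F, and 1 each of clades C, D, G, H and I. Of these, 21 reached 1 TPM in at least 3 rats and were tested, among 13105 genes tested in all. TPM is a gene's share of the RNA of a sample after division by transcript length, so levels can be compared between genes.

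The samples were meibomian glands, the lipid-secreting glands of the eyelid, dissected from 17 female rats aged 10 to 12 weeks. Control WT rats (n = 4) were wild-type and untreated, Control P1.hMR rats (n = 5) were untreated transgenic rats, and UVB WT (n = 3) and UVB P1.hMR rats (n = 5) had received ultraviolet B on the eyelids for 5 days. P1.hMR rats carry the human mineralocorticoid receptor gene under that gene's own proximal promoter, P1, which is not specific to the gland. All groups shared the Sprague-Dawley background, and the UVB groups served as a model of ocular rosacea.

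Serpins are a family of proteins that share a fold with an exposed reactive loop. In the inhibitory members a protease cuts the loop and is then held in a covalent complex that destroys both partners, while other members have lost this activity and carry hormones, fold collagen or signal. Clade A holds mostly secreted plasma proteins such as alpha-1-antitrypsin, and clade B proteins lack a classical signal peptide and act largely inside cells, many of them in stratified epithelia. In skin and its glands, serpins control plasmin, kallikreins, cathepsins and the complement and contact cascades.

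The human transgene was listed at 0 TPM in every WT rat and between 5.31 and 9.31 TPM in every P1.hMR rat. All 10 meibocyte markers were expressed in every rat, and the wax synthase gene Awat2 lay between 6495 and 12062 TPM. Keratinocyte, hair follicle, skeletal muscle and fibroblast markers were also present in every rat, so each value is an average over several tissues. In such bulk samples, fewer cells of a type and less RNA per cell cannot be told apart. Depth cannot be recovered from TPM, and nothing below carries a counting error. A pair of WT rats stood apart at the serpins. Control WT rat 1 was the lowest of its group at 16 of the 21 tested members. It had the lowest summed fibroblast markers of its group, 961 TPM where the group's highest was 1489 TPM. Its summed basal keratinocyte, skeletal muscle, endothelial, macrophage, T and NK cell, melanocyte and Schwann cell markers were also the lowest of the group. Those of suprabasal keratinocytes, hair follicle, neutrophils and mast cells were not, and its summed meibocyte markers were the highest, 25432 TPM. UVB WT rat 2 was the lowest of its group at 18 of the 21. Where leaving out either rat changed a call, the value without it is given.

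Clade B made up most of the family's RNA. The summed level of the 33 members was 1298 ± 136 TPM in Control WT (SD, n = 4), 1367 ± 26.2 TPM in Control P1.hMR (SD, n = 5), 1446 ± 149 TPM in UVB WT (SD, n = 3) and 1492 ± 90.0 TPM in UVB P1.hMR rats (SD, n = 5), and the ranges of UVB and control rats overlapped in WT but not in P1.hMR rats. Clade B carried between 69.3% and 72.3% of this sum in each group. Clade A carried 101 ± 34.0 TPM in Control WT and 110 ± 24.9 TPM in Control P1.hMR rats, against 39.7 ± 12.3 TPM in UVB WT and 34.7 ± 7.07 TPM in UVB P1.hMR rats. The highest clade A sum of any UVB rat, 50.54 TPM, lay just under the lowest of any control rat, 50.93 TPM in Control WT rat 1. Most of this sum was Serpina1, whose mean was 77.8 TPM in Control WT and 85.3 TPM in Control P1.hMR rats. In UVB WT and UVB P1.hMR rats its mean was 25.3 and 23.0 TPM.

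Averaged over the 17 rats, the order of levels was led by Serpinb1a, an inhibitor of neutrophil serine proteases (285 TPM), Serpinb5 or maspin, a non-inhibitory epithelial serpin (252 TPM), and Serpinb10 (202 TPM). The ranges of the first 2 over all rats overlapped, from 191.7 to 344.01 TPM for Serpinb1a and from 214.87 to 298.5 TPM for Serpinb5. Compared within each rat, Serpinb1a was the higher in every UVB rat. Among control rats their order varied, with Serpinb5 the higher in Control WT rats 1 and 3 and Control P1.hMR rat 4. Serpinb6a, Serpinf1, Serpinh1 and Serping1 followed, and the lowest tested members were Serpina9 and Serpinb6b. Serpinb6b reached 1 TPM in exactly 3 rats, between 0.39 and 1.43 TPM, and was the member just inside the filter.

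**Figure D1:**
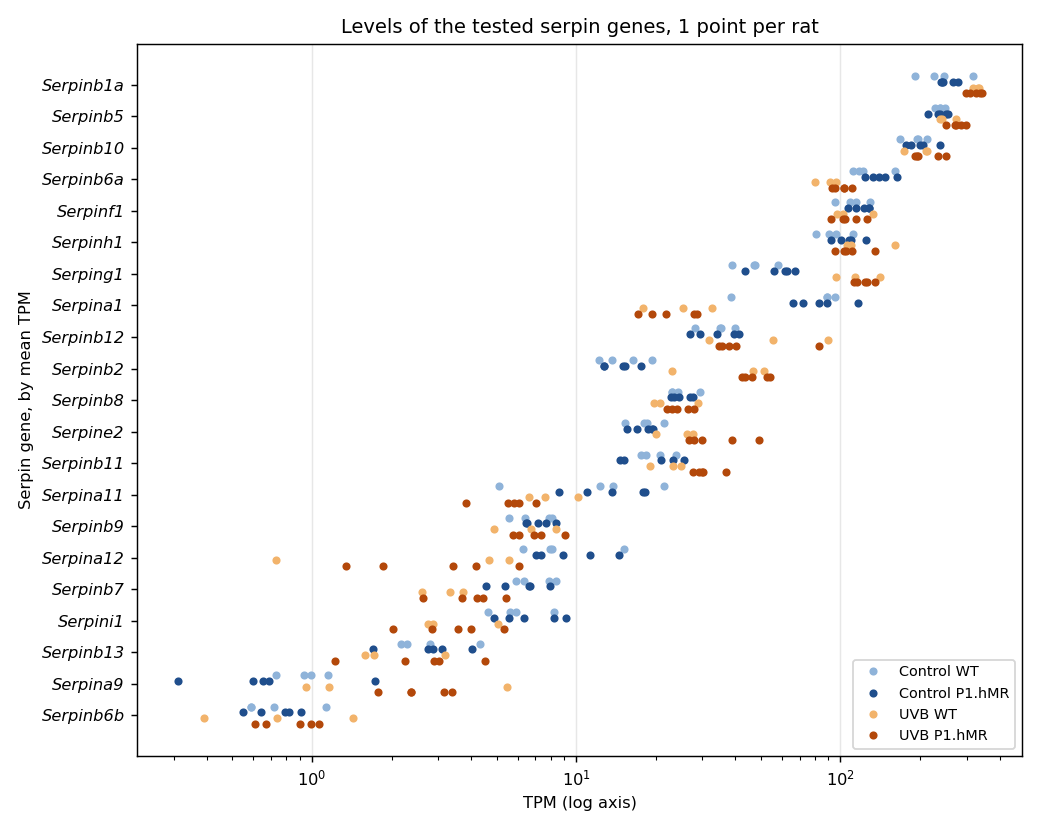
Level of each of the 21 tested serpin genes in each rat, in TPM on a log axis, 1 point per rat and 1 colour per group, with genes ordered by their mean over the 17 rats. Levels ran from Serpinb1a, at 191.7 TPM or more in every rat, to Serpina9 and Serpinb6b near 1 TPM.

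The 12 members that were not tested included several made mainly by the liver. They were Serpina3c, Serpina3m, Serpina4, Serpina5, Serpina6, Serpina16, Serpinb1b, Serpinb9d, Serpinc1, Serpind1, Serpine3 and Serpinf2, among them the genes for corticosteroid-binding globulin (Serpina6), antithrombin (Serpinc1), heparin cofactor II (Serpind1) and alpha-2-antiplasmin (Serpinf2). Their highest value in any rat was 0.64 TPM, for Serpinb9d, the member just outside the filter.

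After UVB, 11 of the 21 tested members were called in at least 1 genotype, beside 12.7% of all tested genes. A gene was called at an adjusted p under 0.05 from limma, with Benjamini-Hochberg adjustment over all 13105 genes, where the log2 fold change of TPM + 1 was also 0.5 or more in either direction. In WT rats 6 of 21 members were called, against a background of 7.91% of all tested genes. Serpinb2 and Serping1 rose (background for higher calls 3.92%), and Serpina1, Serpina12, Serpinb6a and Serpinb7 fell (background for lower calls 3.98%). In P1.hMR rats 10 of 21 were called, against a background of 10.8%. Serpina9, Serpinb2, Serpinb11, Serpine2 and Serping1 were called higher (background 5.05%), and Serpina1, Serpina11, Serpina12, Serpinb7 and Serpini1 lower (background 5.71%). Serpina9 passed the filter on low values only through UVB rats. It enters these counts, but its call is not read as a result. Groups that did not overlap were counted as well. All UVB WT rats lay above all Control WT rats at 3 members and below them at 4, beside 14.0% and 12.6% of all genes, and the same held in P1.hMR rats at 6 and 4 members, beside 13.2% and 14.0%.

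The members did not move in a common direction. Their log2 fold changes had a median of 0.04 (WT) and 0.04 (P1.hMR), beside 0.01 and -0.02 over all tested genes, whereas the median absolute log2 change was 0.44 and 0.48, beside 0.14 and 0.16. All 21 had the same sign in both genotypes, and 5 were called in both, namely Serpina1, Serpina12, Serpinb2, Serpinb7 and Serping1, beside 6.01% of all tested genes. Only a direct test of the difference between the 2 responses can tell them apart, and that test called none of the 21, as given with the genotype comparisons. Scaling the TPM values by the median of ratios instead of taking them as listed changed no call among the named members.

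**Figure D2:**
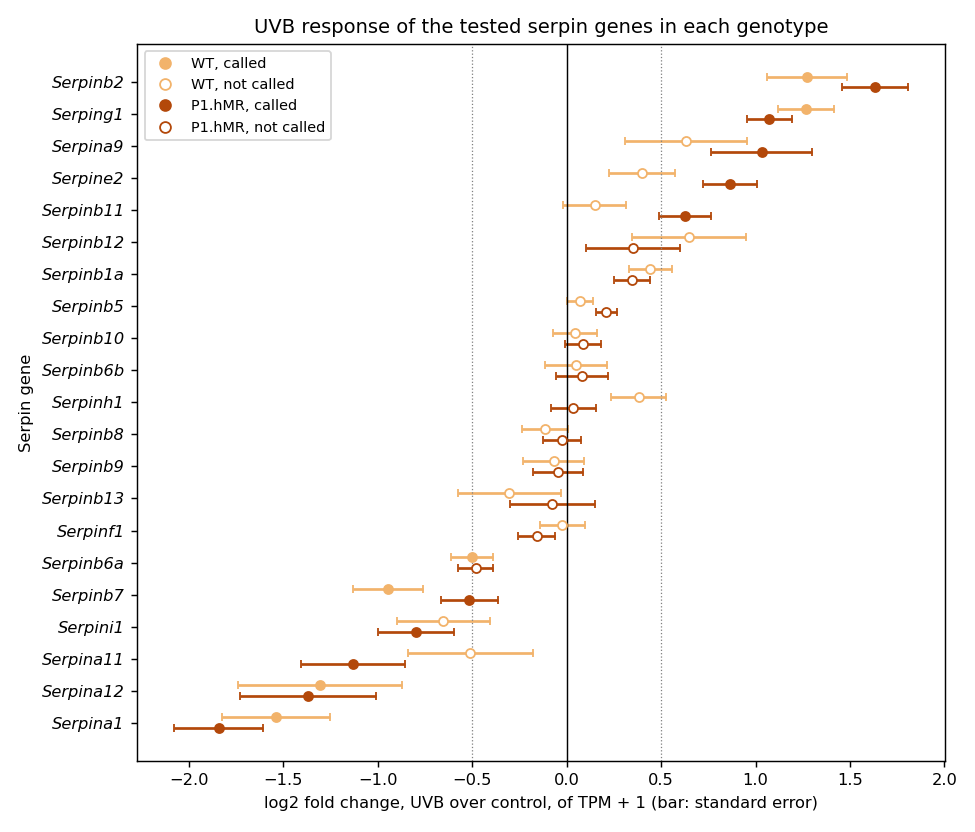
Log2 fold change of each tested serpin gene after UVB in WT and in P1.hMR rats, on the log2(TPM + 1) scale, with the standard error from limma as the bar. Filled points were called, dotted lines mark an absolute change of 0.5, and the changes ran from -1.84 for Serpina1 to 1.63 for Serpinb2, both in P1.hMR rats.

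Among the serpins that restrain plasminogen activators, Serpinb2 rose after UVB in both genotypes and Serpine2 in P1.hMR rats. Serpinb2 encodes plasminogen activator inhibitor type 2, a largely intracellular protein of keratinocytes and macrophages that blocks urokinase. It was at 13.69, 12.17, 19.42 and 16.44 TPM in Control WT and at 46.73, 23.01 and 51.36 TPM in UVB WT rats. In P1.hMR rats it was at 15.08, 15.32, 17.57, 12.77 and 12.79 TPM without UVB and at 43.41, 42.35, 46.11, 52.6 and 54.01 TPM with it. Every UVB rat was above every control rat, with UVB WT rat 2 the lowest of them. The log2 fold change was 1.27 in WT (standard error 0.21, limma adjusted p = 0.000812) and 1.63 in P1.hMR rats (standard error 0.17, limma adjusted p = 5.21e-06). Without UVB WT rat 2 the change in WT was 1.63 (limma adjusted p = 2.77e-05).

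Serpine2 encodes protease nexin-1, a cell-surface inhibitor of thrombin and urokinase. It was at 15.29, 18.57, 18.09 and 21.5 TPM in Control WT and at 26.17, 20.0 and 27.65 TPM in UVB WT rats, which overlapped at UVB WT rat 2. In P1.hMR rats it was at 18.76, 17.02, 19.56, 15.5 and 19.39 TPM without UVB and at 27.82, 26.66, 29.85, 49.23 and 38.92 TPM with it, with no overlap. In P1.hMR rats it rose by 0.86 on the log2 scale (standard error 0.15, limma adjusted p = 0.000243), and its change in WT rats was 0.40 (standard error 0.18, limma adjusted p = 0.115), or 0.54 without UVB WT rat 2 (limma adjusted p = 0.0693).

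Serpini1 encodes neuroserpin, an inhibitor of the tissue activator known best from neurons, and it moved the other way. Its levels were 4.65 to 8.22 TPM in Control WT, 2.76 to 5.04 TPM in UVB WT, 4.9 to 9.14 TPM in Control P1.hMR and 2.03 to 5.32 TPM in UVB P1.hMR rats, so both pairs of groups overlapped at 1 UVB rat or more. It fell by 0.80 on the log2 scale in P1.hMR rats (standard error 0.20, limma adjusted p = 0.00541). The change in WT rats was -0.65 (limma adjusted p = 0.0681), and it passed without Control WT rat 1 (-0.76, limma adjusted p = 0.0478) or UVB WT rat 1 (-0.87, limma adjusted p = 0.0312), and after quantile normalization (-0.65, limma adjusted p = 0.0393). Schwann cell markers were lower beside it, with 3 of 6 called lower in WT and 2 of 6 in P1.hMR rats, beside 3.98% and 5.71% of all tested genes. Their summed level was 107 to 123 TPM in Control WT and 77.4 to 85.8 TPM in UVB WT rats, and 101 to 150 TPM in Control P1.hMR and 78.3 to 87.0 TPM in UVB P1.hMR rats. Their part in the Serpini1 result was not tested.

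Of the 26 genes listed as partners of these serpins in plasminogen activation and clotting, 20 were tested. In WT rats 4 of them were called higher and 2 lower, beside 3.92% and 3.98% of all tested genes. In P1.hMR rats 6 were called higher and 1 lower, beside 5.05% and 5.71%. The list's median log2 change was 0.16 and 0.17, beside 0.01 and -0.02 over all tested genes. The higher calls in P1.hMR rats included Fga, which passed the filter on low values only through UVB rats. Plat, the tissue plasminogen activator itself, went from 10.995 ± 0.885 TPM in Control WT (SD, n = 4) to 20.0 ± 6.29 TPM in UVB WT rats (SD, n = 3), and from 11.4 ± 1.65 TPM to 21.2 ± 3.72 TPM in P1.hMR rats (SD, n = 5 each). Its log2 fold change was 0.77 in WT (limma adjusted p = 0.00547) and 0.83 in P1.hMR rats (limma adjusted p = 0.000303). Plaur, the urokinase receptor, rose by 0.85 (limma adjusted p = 0.00224) and Procr, the endothelial protein C receptor, by 0.76 (limma adjusted p = 0.000848) on the log2 scale in WT rats. At most 3 called genes of each partner list are named per UVB comparison. A partner gene named for 1 genotype may therefore have been called in the other as well. The fibrinogen chain Fgg went from 0.998 ± 0.10 TPM to 5.33 ± 4.20 TPM in P1.hMR rats (SD, n = 5 each), a log2 fold change of 1.42 (limma adjusted p = 0.00161) whose UVB values were widely spread.

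Serping1, the C1 inhibitor that stops C1r and C1s of the complement cascade as well as plasma kallikrein, rose in both genotypes. It was at 39.02, 47.53, 47.09 and 57.87 TPM in Control WT and at 141.22, 96.4 and 113.27 TPM in UVB WT rats. In P1.hMR rats it was at 61.54, 63.0, 43.58, 67.12 and 56.0 TPM without UVB and at 123.94, 113.02, 115.25, 134.98 and 126.06 TPM with it. No UVB rat came near the highest control value. The log2 fold change was 1.27 in WT (standard error 0.15, limma adjusted p = 5.56e-05), and in P1.hMR rats it was 1.07 (standard error 0.12, limma adjusted p = 8.13e-06).

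Most tested genes on a list of complement C1 and contact system partners were also called higher. Of its 13 genes, 9 were tested, and 7 (WT) and 8 (P1.hMR) were called higher with none called lower. Over all tested genes 3.92% and 5.05% were called higher. The list's median log2 change was 0.71 and 0.76, beside 0.01 and -0.02 over all tested genes. C1qb, a chain of the C1q recognition molecule, went from 16.5 ± 4.13 TPM in Control WT (SD, n = 4) to 40.7 ± 9.83 TPM in UVB WT rats (SD, n = 3), a log2 fold change of 1.25 (limma adjusted p = 0.0029), and C1qb rose by 1.34 in P1.hMR rats (limma adjusted p = 0.00014). C1qc rose by 0.94 and 1.11 in WT and P1.hMR rats (limma adjusted p = 0.0052 and 0.00013), C2 by 0.95 in WT rats (limma adjusted p = 0.0054) and C1qa by 0.93 in P1.hMR rats (limma adjusted p = 0.00388). Macrophages make C1q, and C1qa and C1qb also stand in the macrophage marker list, of which 5 of 10 were called higher in each genotype. The summed macrophage markers overlapped between treatments, at 177 to 497 TPM in Control WT and 204 to 336 TPM in UVB WT rats, and at 180 to 439 TPM in Control P1.hMR and 293 to 410 TPM in UVB P1.hMR rats. Their part in the Serping1 result was not tested.

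**Figure D3:**
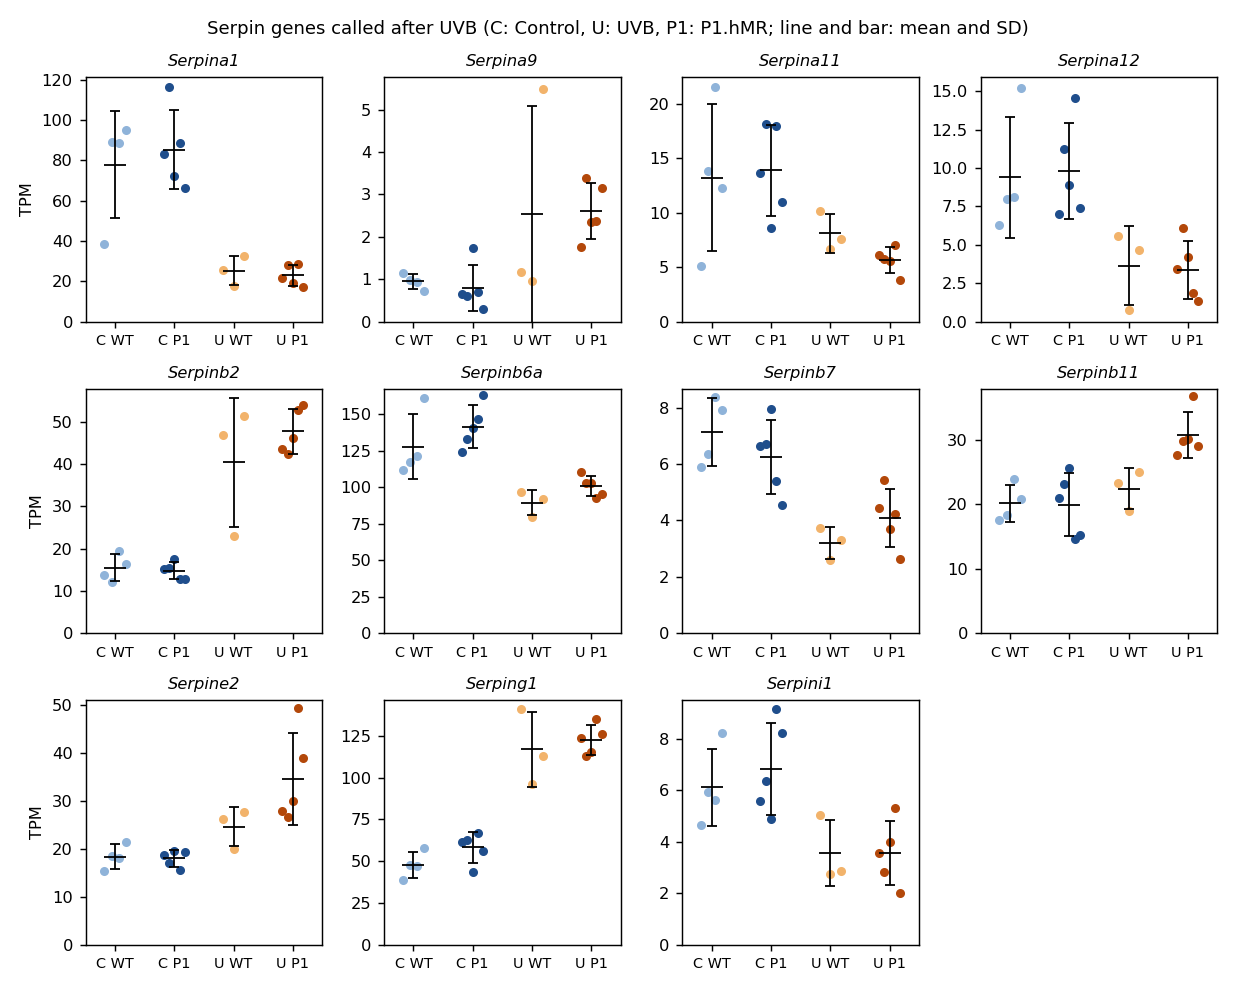
TPM of the 11 called serpin genes in each rat, 1 point per rat, for Control WT (n = 4), Control P1.hMR (n = 5), UVB WT (n = 3) and UVB P1.hMR rats (n = 5). The black line and bar are the mean and SD, the axis starts at 0 where the bar of Serpina9 in UVB WT rats is cut off, and all UVB rats lie above all control rats at Serpinb2 and Serping1.

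The clade A members expressed in the gland were Serpina1, Serpina11, Serpina9 and Serpina12, which lie next to each other in this order in the GRCr8 annotation with no other protein-coding gene between them. Serpina1 encodes alpha-1-antitrypsin, the chief inhibitor of neutrophil elastase. It was at 38.38, 89.19, 88.65 and 95.03 TPM in Control WT and at 25.38, 17.91 and 32.67 TPM in UVB WT rats. The P1.hMR rats had 83.04, 116.3, 72.06, 88.76 and 66.16 TPM without UVB and at 21.88, 28.03, 19.31, 28.74 and 17.2 TPM with it. All UVB rats were below all control rats, and Control WT rat 1 was far below the other controls.

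Serpina1 had a log2 fold change of -1.54 in WT (standard error 0.28, limma adjusted p = 0.0017) and -1.84 in P1.hMR rats (standard error 0.24, limma adjusted p = 2.46e-05), the lowest log2 fold change of any member in each genotype. Without Control WT rat 1 the log2 change in WT was -1.84, and without UVB WT rat 2 it was -1.32. The liver is the textbook source of this protein. Of the 5 listed hepatocyte markers, Alb, Ttr and Fgb were at 0.25 TPM or less in every rat, Apoa1 at up to 1.78 TPM and Fga at up to 6.89 TPM. Their sum was 0.42 to 0.94 TPM in Control WT and 0.67 to 2.04 TPM in UVB WT rats. It was 0.44 to 1.02 TPM in Control P1.hMR and 1.78 to 8.18 TPM in UVB P1.hMR rats. Fga went from 0.026 ± 0.043 TPM in Control P1.hMR to 2.77 ± 2.65 TPM in UVB P1.hMR rats (SD, n = 5 each). No control rat reached 1 TPM at any of the 5 markers, so Fga passed the filter on low values only through UVB rats. Its call is therefore not read as a result. The part of the hepatocyte markers in the Serpina1 result was not tested.

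Serpina12 encodes vaspin, an inhibitor of the skin kallikrein KLK7 that is also made by adipose tissue. It was at 6.28, 7.96, 8.1 and 15.19 TPM in Control WT and at 5.55, 0.73 and 4.68 TPM in UVB WT rats, and at 7.03, 11.23, 8.88, 14.55 and 7.37 TPM in Control P1.hMR and 3.42, 6.08, 4.19, 1.85 and 1.35 TPM in UVB P1.hMR rats. Every UVB rat lay below every control rat, and UVB WT rat 2 was the lowest of all. The log2 fold change was -1.37 in P1.hMR (standard error 0.36, limma adjusted p = 0.00669) and -1.30 in WT rats (standard error 0.44, limma adjusted p = 0.0422). The call in WT rats was lost without UVB WT rat 2 (-0.70, limma adjusted p = 0.243), without Control WT rat 2, 3 or 4 (limma adjusted p = 0.064, 0.0666 and 0.116), and without Control P1.hMR rat 3 or UVB P1.hMR rat 1, which enter only through the shared spread (limma adjusted p = 0.0507 and 0.051). It was also lost in a fit of only the WT rats (limma adjusted p = 0.101).

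Serpina11 fell in P1.hMR rats, from 13.66, 18.19, 8.62, 17.96 and 11.02 TPM to 6.09, 5.8, 5.54, 7.05 and 3.83 TPM, with no overlap and a log2 fold change of -1.13 (standard error 0.27, limma adjusted p = 0.00402). In WT rats it was at 5.12, 13.81, 21.58 and 12.32 TPM without and at 10.13, 6.65 and 7.62 TPM with UVB, and Control WT rat 1 lay below all UVB WT rats. The change in WT was -0.51 (limma adjusted p = 0.291), and without Control WT rat 1 it was -0.87 (limma adjusted p = 0.0265). Without Control WT rat 3, the highest control, it was -0.24 (limma adjusted p = 0.637), and without UVB WT rat 2 it was -0.39 (limma adjusted p = 0.529).

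Serpina9, or centerin, known from germinal centre B cells, was the tested clade A member with positive log2 fold changes. It was at 0.65, 0.6, 1.73, 0.69 and 0.31 TPM in Control P1.hMR and at 1.77, 3.38, 2.36, 2.37 and 3.16 TPM in UVB P1.hMR rats, which did not overlap, though Control P1.hMR rat 3 and UVB P1.hMR rat 1 nearly met. The log2 fold change was 1.03 (standard error 0.27, limma adjusted p = 0.00608). It reached 1 TPM in 9 rats, 5 of them the UVB P1.hMR rats. Of the control rats only Control WT rat 1 and Control P1.hMR rat 3 reached it. Serpina9 therefore passed the filter on low values only through UVB rats, and its call is not read as a result. In WT rats Serpina9 was at 1.15, 0.99, 0.93 and 0.73 TPM without UVB and at 1.16, 0.95 and 5.49 TPM with it. UVB WT rat 3 alone stood high, and the change was 0.63 (limma adjusted p = 0.174), or 0.08 without that rat (limma adjusted p = 0.849).

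The 250 bases before the start of Serpina9 and Serpina12 are printed because these adjacent genes had log2 fold changes of opposite sign. RefSeq gives them on the minus strand of GRCr8, at chr6:128700785-128701034 for Serpina9 and chr6:128732050-128732299 for Serpina12. They are written 5′ to 3′ along the gene, and neither held any of the motifs searched, which are described with the clade B genes.
Serpina9: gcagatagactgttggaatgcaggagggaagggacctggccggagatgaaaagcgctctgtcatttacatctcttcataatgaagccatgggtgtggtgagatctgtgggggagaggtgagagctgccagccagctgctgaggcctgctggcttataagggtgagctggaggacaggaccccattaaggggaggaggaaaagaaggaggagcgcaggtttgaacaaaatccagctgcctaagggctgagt
Serpina12: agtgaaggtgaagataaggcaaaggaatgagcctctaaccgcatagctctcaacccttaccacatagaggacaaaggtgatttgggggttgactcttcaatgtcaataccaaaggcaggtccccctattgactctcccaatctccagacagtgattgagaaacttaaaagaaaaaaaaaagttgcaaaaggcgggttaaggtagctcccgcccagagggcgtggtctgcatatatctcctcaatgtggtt

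**Figure D4:**
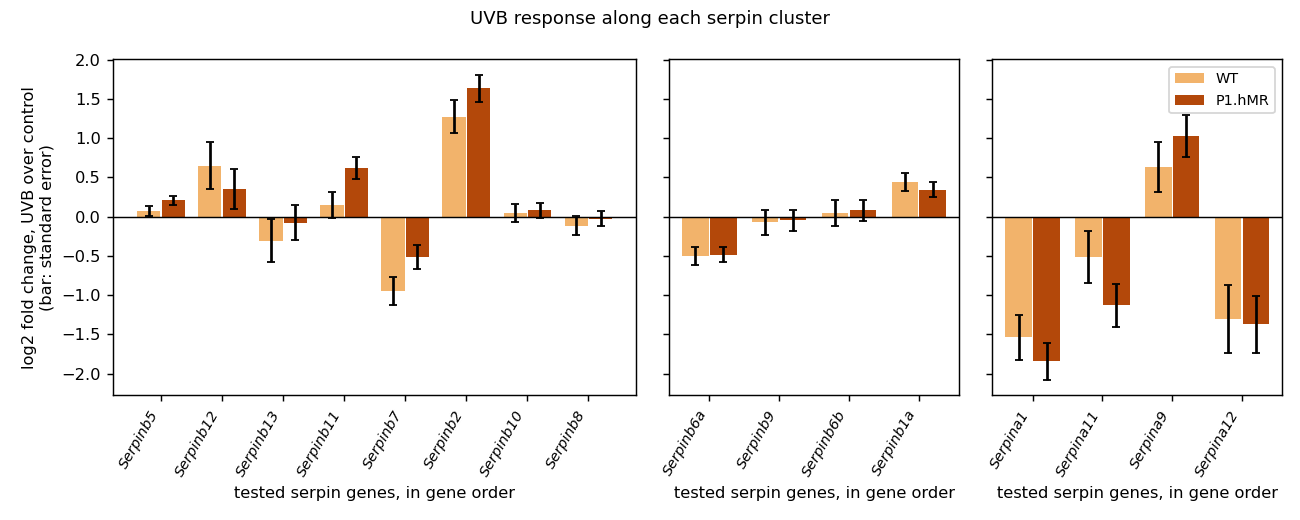
Log2 fold change after UVB of the tested serpin genes of 3 chromosomal clusters, on the log2(TPM + 1) scale, in the order of the GRCr8 annotation with intervening genes left out. Bars show WT and P1.hMR rats with the standard error from limma, and neighbours such as Serpinb7 (-0.95 and -0.51) and Serpinb2 (1.27 and 1.63) had changes of opposite sign.

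In the annotation the clade B genes with a promoter lay on 2 chromosomes, Serpinb5, Serpinb13, Serpinb11, Serpinb7, Serpinb2 and Serpinb10 on chromosome 13 and Serpinb6a, Serpinb9, Serpinb6b and Serpinb1a on chromosome 17. On chromosome 13 neighbours differed. Serpinb11, Serpinb7, Serpinb2, Serpinb10 and Serpinb8 follow each other with no other protein-coding gene between them. Serpinb7, or megsin, is a cytoplasmic serpin of the upper epidermis whose loss in humans causes a palmoplantar keratosis. It was at 5.9, 6.34, 8.38 and 7.91 TPM in Control WT and at 3.72, 2.6 and 3.32 TPM in UVB WT rats. The P1.hMR rats had 6.65, 6.7, 7.96, 5.38 and 4.54 TPM without UVB and at 4.45, 5.43, 3.7, 4.23 and 2.64 TPM with it. The WT groups did not overlap, while UVB P1.hMR rat 2 was above 2 of the Control P1.hMR rats.

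Serpinb7 fell by 0.95 on the log2 scale in WT (standard error 0.18, limma adjusted p = 0.00226) and by 0.51 in P1.hMR rats (standard error 0.15, limma adjusted p = 0.0135), the latter close to the threshold of 0.5. Leaving out Control P1.hMR rat 1, 2 or 3 took the log2 fold change in P1.hMR rats to -0.49, -0.49 and -0.43, and leaving out UVB P1.hMR rat 3 or 5 took it to -0.49 and -0.40, each under the threshold of size. After quantile normalization it was also -0.49.

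Serpinb11 rose in P1.hMR rats, from 20.91, 23.19, 25.64, 14.6 and 15.21 TPM to 27.59, 29.83, 30.14, 36.8 and 29.1 TPM with no overlap, a log2 fold change of 0.63 (standard error 0.14, limma adjusted p = 0.00216). In WT rats it was at 17.56, 18.37, 23.92 and 20.79 TPM without and at 23.34, 18.97 and 24.99 TPM with UVB, which overlapped, and the change was 0.15 (standard error 0.17, limma adjusted p = 0.567).

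Serpinb12, an inhibitor of trypsin-like proteases, was not called, but single rats stood far out. It was at 35.23, 28.08, 35.1 and 39.81 TPM in Control WT and at 55.76, 31.92 and 89.49 TPM in UVB WT rats, and UVB P1.hMR rat 2 was at 82.72 TPM where the other 4 were between 34.7 and 40.11 TPM. The log2 fold change was 0.65 in WT (standard error 0.30, limma adjusted p = 0.135) and 0.35 in P1.hMR rats (standard error 0.25, limma adjusted p = 0.278). Without UVB WT rat 2 the change in WT was 1.02 (limma adjusted p = 0.0263), and without UVB WT rat 3 it was 0.29 (limma adjusted p = 0.534). Without UVB P1.hMR rat 2 the change in P1.hMR rats was 0.12 (limma adjusted p = 0.672).

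Serpinb5 and Serpinb10 were abundant and moved little. Serpinb5 went from 239 ± 15.8 TPM in Control P1.hMR to 276 ± 17.6 TPM in UVB P1.hMR rats (SD, n = 5 each), a log2 change of 0.21 (standard error 0.06, limma adjusted p = 0.00708) that was under the threshold of size, and its change in WT rats was 0.07 (standard error 0.07, limma adjusted p = 0.487). Serpinb10 lay between 167.95 and 212.52 TPM in WT and between 176.34 and 251.84 TPM in P1.hMR rats, with changes of 0.04 and 0.08 (standard errors 0.11 and 0.09). Serpinb8 and Serpinb13, the latter an inhibitor of cathepsin L in keratinocytes, were not called in either genotype, with log2 changes between -0.30 and -0.02.

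The 250 bases before the start of Serpinb7 and Serpinb2 are printed because these direct neighbours were called in opposite directions in both genotypes. RefSeq places both on the plus strand of GRCr8, Serpinb7 at chr13:23910056-23910305 and Serpinb2 at chr13:24055771-24056020. Capitals mark matches to any of 3 motifs searched on both strands, and no match overlapped another in these windows. The motifs were a loose AP-1 pattern, TGANTCA with N as any base, the TATA box TATAAA and the steroid receptor half-site TGTTCT.
Serpinb7: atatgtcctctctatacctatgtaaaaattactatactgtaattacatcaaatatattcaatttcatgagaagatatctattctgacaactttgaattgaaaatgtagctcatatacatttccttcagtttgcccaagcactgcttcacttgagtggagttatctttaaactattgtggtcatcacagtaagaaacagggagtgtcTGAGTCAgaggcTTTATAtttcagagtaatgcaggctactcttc
Serpinb2: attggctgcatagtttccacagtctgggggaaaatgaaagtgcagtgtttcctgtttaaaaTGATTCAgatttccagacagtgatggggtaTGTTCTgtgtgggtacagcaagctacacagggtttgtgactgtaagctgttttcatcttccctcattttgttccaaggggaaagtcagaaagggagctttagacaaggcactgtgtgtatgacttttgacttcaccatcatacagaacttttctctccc

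Both windows held a match to the loose AP-1 pattern, TGAGTCA 44 bases before the start in Serpinb7 and TGATTCA 189 bases before it in Serpinb2. Serpinb7 also held a TATA box on the opposite strand, 32 bases before its start, and Serpinb2 a TGTTCT 159 bases before its start. Of the 21 tested members, 18 had an entry in this table, with 19 windows. The loose AP-1 pattern was in 3 of the 19, those of Serpinb5 (as TGAATCA), Serpinb7 and Serpinb2. It was in 6.34% of 33469 windows of the same length over all genes. The TATA box was also in 3 of the 19 and in 12.9% of all windows, and the half-site was in 3 and in 17.5%. A match is a run of letters and was not tested as a site of binding.

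Of the serpins that guard cells against granule proteases, Serpinb1a and Serpinb6a were abundant. Serpinb1a was at 191.7, 246.03, 225.28 and 316.24 TPM in Control WT and at 316.37, 332.33 and 334.2 TPM in UVB WT rats. In P1.hMR rats it was at 240.12 to 277.68 TPM without and at 298.24 to 344.01 TPM with UVB, and neither pair of groups overlapped. Its log2 changes of 0.44 in WT (standard error 0.11, limma adjusted p = 0.0115) and 0.35 in P1.hMR rats (standard error 0.09, limma adjusted p = 0.00817) passed the test but not the threshold of size. Without Control WT rat 4, the highest control, the change in WT was 0.57 and passed both.

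Serpinb6a, an intracellular inhibitor of cathepsin G and trypsin-like proteases, was at 111.69, 117.14, 121.72 and 161.04 TPM in Control WT and at 96.57, 79.86 and 91.63 TPM in UVB WT rats. It was at 124.01, 133.33, 140.3, 147.1 and 163.36 TPM in Control P1.hMR and at 110.22, 102.95, 102.99, 92.72 and 95.56 TPM in UVB P1.hMR rats. All UVB rats were below all control rats. The log2 changes were near the threshold of size in both genotypes, -0.502 in WT (standard error 0.11, limma adjusted p = 0.00542), which was called, and -0.48 in P1.hMR rats (standard error 0.09, limma adjusted p = 0.000741), which was not. Without Control WT rat 4 or UVB WT rat 2 the change in WT was -0.39 and -0.42 and no longer called. Without Control P1.hMR rat 1 or 2 or UVB P1.hMR rat 1 the change in P1.hMR rats was -0.53, -0.502 and -0.51 and was called.

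Serpinb9, an inhibitor of granzyme B, and Serpinb6b were not called in either genotype, with log2 changes between -0.07 and 0.08. Of 19 genes listed for leukocyte granule serine proteases, the targets of these serpins, 12 were listed in the table and 3 passed the filter on low values, all of them mast cell proteases. The tryptase Tpsab1 went from 1.13 ± 0.33 TPM in Control WT (SD, n = 4) to 3.73 ± 0.94 TPM in UVB WT rats (SD, n = 3), a log2 fold change of 1.15 (limma adjusted p = 0.00137), and rose by 1.56 in P1.hMR rats (limma adjusted p = 5.92e-06). Tpsb2 and the chymase Cma1 rose in P1.hMR rats by 1.01 and 0.80 (limma adjusted p = 0.000245 and 0.00834). Summed mast cell markers were 20.3 to 29.0 TPM in Control WT and 35.0 to 37.6 TPM in UVB WT rats, and 22.5 to 30.6 TPM in Control P1.hMR and 32.8 to 55.2 TPM in UVB P1.hMR rats, and Tpsab1 and Cma1 are themselves in that list. Of 9 tested cysteine cathepsins, the cross-class targets of some clade B serpins, Ctsz was called higher and Ctsw lower in each genotype. The shares called over all tested genes lay between 3.92% and 5.71%. The log2 changes of Ctsz, 0.51 (WT) and 0.52 (P1.hMR), were close to the threshold of size (limma adjusted p = 0.0192 and 0.00267). Ctsw had log2 changes of -0.89 (WT) and -0.70 (P1.hMR), with limma adjusted p = 0.00648 and 0.00411. Its mean was 1.68 TPM in Control WT, 1.59 TPM in Control P1.hMR, 0.42 TPM in UVB WT and 0.55 TPM in UVB P1.hMR rats. With SDs of 0.09 TPM in UVB WT and 0.16 TPM in UVB P1.hMR rats, no UVB rat could have reached 1 TPM. Ctsw therefore passed the filter on low values only through control rats, and its calls are not read as results. Values this low also have no known counting error.

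With all rats in the fit, the non-inhibitory serpins of the stroma did not pass the test after UVB. Serpinh1 encodes HSP47, the chaperone that folds procollagen in the endoplasmic reticulum. It was at 80.79, 96.62, 111.11 and 90.76 TPM in Control WT and at 160.34, 109.51 and 105.81 TPM in UVB WT rats, with UVB WT rat 1 far above the rest. Its change was 0.38 in WT (standard error 0.15, limma adjusted p = 0.0723), or 0.19 without UVB WT rat 1 (limma adjusted p = 0.353). Without Control WT rat 3 it was 0.46 (limma adjusted p = 0.0472) and without UVB WT rat 3 it was 0.49 (limma adjusted p = 0.0473). Both passed the test but not the threshold of size. In P1.hMR rats the change was 0.04 (standard error 0.12, limma adjusted p = 0.841). Serpinf1, pigment epithelium-derived factor, was between 92.26 and 132.66 TPM over all rats, with changes of -0.02 and -0.16 (limma adjusted p = 0.916 and 0.218).

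Of the 29 tested genes for collagens and their folding partners, 2 were called higher in WT rats, beside 3.92% of all tested genes. In P1.hMR rats 4 were called higher and 1 lower, beside 5.05% and 5.71%. Col4a1 and Col4a2, the basement membrane chains, rose by 0.91 and 0.78 in WT (limma adjusted p = 4.08e-05 and 0.000189) and by 0.85 and 0.72 on the log2 scale in P1.hMR rats (limma adjusted p = 3.02e-06 and 1.41e-05). Col1a1, the main fibrillar chain, went from 575 ± 64.4 TPM to 320 ± 68.9 TPM in P1.hMR rats (SD, n = 5 each), a log2 change of -0.86 (limma adjusted p = 0.0017). Summed fibroblast markers, which include Col1a1, were 961 to 1489 TPM in Control WT and 1265 to 2017 TPM in UVB WT rats, and 1399 to 1616 TPM in Control P1.hMR and 1354 to 1831 TPM in UVB P1.hMR rats.

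Markers of some other tissues of the eyelid also moved with UVB. Of 11 hair follicle keratins tested, 8 (WT) and 6 (P1.hMR) were called lower, beside 3.98% and 5.71% of all tested genes. Their summed level was 1041 to 1378 TPM in Control WT and 398 to 1101 TPM in UVB WT rats. It was 842 to 1724 TPM in Control P1.hMR and 568 to 888 TPM in UVB P1.hMR rats. Summed meibocyte markers were 21404 to 25432 TPM in Control WT and 17720 to 18740 TPM in UVB WT rats, and 19490 to 22833 TPM in Control P1.hMR and 16572 to 19627 TPM in UVB P1.hMR rats. Calls on single meibocyte markers went both ways, with 1 of the 10 called higher and 1 lower in each genotype. The shares over all tested genes lay between 3.92% and 5.71%. Over all 10 the median log2 change was -0.17 for WT, the direction of the sum, and -5.4e-05 for P1.hMR. Over all tested genes it was 0.01 and -0.02. None of the 6 basal keratinocyte or 7 skeletal muscle markers tested was called in either genotype. Summed basal keratinocyte markers were 8109 to 10332 TPM in Control WT and 10579 to 11685 TPM in UVB WT rats. In P1.hMR rats they were 8778 to 10024 TPM without UVB and 8392 to 13441 TPM with it. The part of these tissues in the changes of the serpin genes was not tested.

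Inhibitors outside the family gave a setting for these changes. Of 15 tested inhibitors of other classes, 3 were called higher and 4 lower in WT rats, beside 3.92% and 3.98% of all tested genes. In P1.hMR rats 3 were called higher and 3 lower, beside 5.05% and 5.71%. Timp1, an inhibitor of matrix metalloproteinases, went from 11.6 ± 1.15 TPM in Control WT (SD, n = 4) to 107 ± 59.8 TPM in UVB WT rats (SD, n = 3), a log2 fold change of 2.95 (limma adjusted p = 8.03e-06), and Timp1 rose by 3.02 in P1.hMR rats (limma adjusted p = 2.43e-07). Slpi, a secreted elastase inhibitor, rose by 1.52 and 1.39 on the log2 scale (limma adjusted p = 0.00316 and 0.00055). Cst6, cystatin M/E of the epidermis and its appendages, fell by 1.29 (WT) on the log2 scale and had a log2 change of -1.53 in the transgenic rats (limma adjusted p = 0.000385 and 4.72e-06), from 3161 ± 660 TPM in Control WT (SD, n = 4) to 1312 ± 402 TPM in UVB WT rats (SD, n = 3).

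The genotypes were then compared within each treatment. Without UVB, limma called 0 of the 21 members between P1.hMR and WT rats, against a background of 0.00763% of all genes. At an unadjusted p under 0.05, 1 member passed, Serping1, higher by 0.28 (standard error 0.13, limma adjusted p = 0.998, unadjusted 0.0467), beside 4.03% of all genes. The log2 differences of all members lay between -0.17 and 0.28.

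Under UVB, limma again called 0 of the 21, against a background of 0.0229%. At an unadjusted p under 0.05, 3 members passed, beside 10.3% of all genes, and all 3 had the higher mean in UVB P1.hMR rats. Serpinb11 was higher by 0.44 (standard error 0.16, limma adjusted p = 0.36), and it was the only member whose UVB P1.hMR rats, from 27.59 TPM up, did not overlap the UVB WT rats, which reached 24.99 TPM, beside 1.73% of all genes that did not overlap in this direction. Serpine2 was higher by 0.45 (standard error 0.17, limma adjusted p = 0.375) and Serpinb5 by 0.14 (standard error 0.06, limma adjusted p = 0.48). The remaining differences lay between -0.46, for Serpina11, and 0.31, for Serpinb2. Without UVB WT rat 2, the difference was 0.33 at Serpinb11, 0.31 at Serpine2 and -0.04 at Serpinb2. At Serpinb12 it moved from -0.31 to -0.69.

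The interaction asks directly whether the response to UVB differed between genotypes. It called 0 of the 21 members in limma, against a background of 0.0%. At an unadjusted p under 0.05, 1 member passed, Serpinb11, whose response was larger in P1.hMR rats by 0.48 (standard error 0.22, limma adjusted p = 0.711, unadjusted 0.0434), beside 6.92% of all genes. The standard errors of the other differences ran up to 0.57 for Serpina12, so that members called in 1 genotype, such as Serpina9 (difference 0.40, standard error 0.42), Serpina11 (-0.62, standard error 0.43), Serpine2 (0.46, standard error 0.23) and Serpini1 (-0.15, standard error 0.32), were not shown to respond differently in the other. None of the partner genes of the 6 lists was called in a genotype comparison or in the interaction.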

How the data were processed

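RNA from meibomian glands of 17 rats was sequenced, with 1 column per rat. The paper names FastQC, STAR, RSEM and the rn7 genome, while the submitters' processing notes list FastQC, Trimmomatic, DRAGEN and Picard with rn7, and which aligner made the table could not be settled. The authors deposited TPM with 2 decimals and decimal commas for 17251 genes, read here as points, and no further normalization is stated. TPM keeps no depth, so precision comes from the spread between rats, whose columns summed to between 804378 and 840817 TPM.

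The fit used log2 of TPM plus a pseudocount of 1, on which changes of low genes come out too small. Genes at 1 TPM or more in 3 rats or more were fitted in R 4.3.3 with limma 3.58.1, with a variance trend, a mean for each of the 4 groups and two-sided tests adjusted by Benjamini-Hochberg over 13105 genes. Calls needed an adjusted p under 0.05 and a log2 fold change of 0.5 or more in either direction. Groups came from the sample titles. Paralogs such as Serpinb1a and Serpinb1b, Serpinb6a and Serpinb6b, or Serpinb9 and Serpinb9d can share reads, so their split is uncertain. The model was tested on simulated data.

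Values are given for the 17 members called in any comparison or with a group mean of at least 50 TPM, and for at most 3 called genes of each partner list per UVB comparison. Members, gene lists and marker lists were chosen with earlier results of these data known. A gene that the rule also found is not reported here and enters no count of members. Symbols, gene order and promoter windows came from RefSeq (GRCr8), in which all 33 members matched and 27 had a promoter entry. Serping1 had none. Alternatives were a pseudocount of 0.1, no filter or a mean of at least 5 TPM, quantile and median-of-ratios scaling, other fold thresholds, fits of only the groups compared, no trend, sample weights, a replicate block and each rat left out. Tables and figures used Python 3.11.15, pandas 2.3.3, numpy 2.4.6 and matplotlib 3.10.9.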

Additional observations from a re-analysis of the deposited data

Results flagged for a closer look

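Among the named members, 51 groups of 4 or 5 rats were examined for a rat that lies apart from its group by Dixon's criterion at 95%, which chance alone would flag in about 1 group in 20, and 2 were found. Serpina1 was at 38.38 TPM in Control WT rat 1, where the other 3 Control WT rats lay between 88.65 and 95.03 TPM. Serpinb12 was at 82.72 TPM in UVB P1.hMR rat 2, where the other 4 rats of that group lay between 34.7 and 40.11 TPM.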

How the results depend on the processing

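Only the threshold of size moved a number of called members by more than 1.5 times, in P1.hMR rats. At a log2 fold change of 1 or more in either direction, 4 members were called in WT and 6 in P1.hMR rats, Serpina9 among the latter. Leaving out each rat in turn, the number called ran from 5 to 8 in WT and from 9 to 11 in P1.hMR rats, and it was 0 each time for the genotype comparisons and the interaction. Of single members, Serpinb10 in WT rats was at -0.0036 after quantile normalization, and Serpinf1 in WT rats at 0.0056 with the replicate block, both with the opposite sign to the value reported and far from any call. Leaving out 1 rat also turned the sign of Serpinb10 (range -0.0211 to 0.136) and Serpinf1 (-0.16 to 0.0626) after UVB in WT, of Serpinh1 after UVB in P1.hMR (-0.0427 to 0.0919), and of Serpinb2 (-0.0447 to 0.518) and Serpinb12 (-0.688 to 0.0417) between genotypes under UVB, none of them called in these comparisons. The call of Serpina12 in WT rats was also lost without the filter on low values (limma adjusted p = 0.0632) and with sample weights (limma adjusted p = 0.0517). The cause of these changes was not tested. Without depth, no value near 1 TPM has a known counting error, which touches Serpina9 and Serpinb6b most.

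Replicate numbers recur across groups in the titles, and no label says whether rats of the same number shared a litter or day. Same-numbered rats had deviations from their group means that correlated between -0.19 and 0.24, over 0.1 in 4 of 22 pairs, and a rat correlated best with its own number in 11 of 44 comparisons with another group. With so few rats per group, these values cannot decide whether a litter or day was shared. With the replicate number as a block, 4 members were called in WT and 10 in P1.hMR rats. Serpina12 (-1.25, limma adjusted p = 0.0777) and Serpinb6a (-0.47) in WT rats were not called under the block.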
